A study of Mus musculus with 6 samples.

Results

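The renin-angiotensin genes of the mouse kidney and the peptidases that cleave their peptides were examined in lupus-prone mice. The set holds Ren1, Agt, Ace, Agtr1a, Agtr1b, Mme, Enpep, Anpep and Atp6ap2, and every probe that the array names for one of these 9 genes was taken, whatever its signal. These are 14 of the 56605 probes that are not controls, and 9 of the 36870 gene names on the array. TA (transcriptome analysis) was done on whole kidney RNA of 3 kidneys of MRL mice (MRL/MpJ, the control strain) and 3 of LPR mice (MRL/lpr, MRL/MpJ-Fas lpr/lpr). The labels number the kidneys but do not state separate animals. All came from females 6 months of age, and no treatment is named for them. LPR mice carry the lpr mutation of Fas, a death receptor of lymphocytes, in every cell, and share the MRL/MpJ background with their controls. Each kidney was hybridized to 1 single-colour Agilent array.

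The renin-angiotensin system is a chain of peptide cleavages that controls blood pressure and salt balance. Renin, released by juxtaglomerular cells in the wall of the afferent arteriole, cuts angiotensinogen into angiotensin I, and angiotensin-converting enzyme trims that to angiotensin II. Angiotensin II acts through the AT1 receptor, which contracts arterioles, raises sodium uptake and restrains renin release. In the proximal tubule, peptidases of the brush border cut angiotensin peptides further.

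The largest difference was in renin, so the sequences with which it was read are shown first. The array holds 2 Ren1 probes of 60 bases on chromosome 1, whose starts lie 4253 bases apart. They are given with their positions on the mouse build mm9 and on the plus strand, without capitals since no base of them is singled out.
Ren1 A_55_P2014416, chr1:135255035-135255094: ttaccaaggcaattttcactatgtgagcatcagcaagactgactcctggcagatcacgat
Ren1 A_55_P1966304, chr1:135250782-135250841: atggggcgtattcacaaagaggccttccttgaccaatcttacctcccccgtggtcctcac
The exons that hold these probes were not looked up, since no annotation of mm9 was used here.

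The windows of 250 bases before the RefSeq starts of Ren1 and Agt, the enzyme and the substrate of the first step, are shown for the genes that open the cascade. Positions are on GRCm38.p6, each sequence reads along the gene, and capitals mark the letters TATAAA, the core of a TATA box.
Ren1, chr1:133350424-133350673, plus strand: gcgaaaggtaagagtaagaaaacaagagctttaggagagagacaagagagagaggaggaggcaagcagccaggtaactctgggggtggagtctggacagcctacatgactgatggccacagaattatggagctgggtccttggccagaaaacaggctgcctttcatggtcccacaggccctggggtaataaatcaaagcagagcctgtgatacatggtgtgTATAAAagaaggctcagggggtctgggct
Agt, chr8:124569707-124569956, minus strand: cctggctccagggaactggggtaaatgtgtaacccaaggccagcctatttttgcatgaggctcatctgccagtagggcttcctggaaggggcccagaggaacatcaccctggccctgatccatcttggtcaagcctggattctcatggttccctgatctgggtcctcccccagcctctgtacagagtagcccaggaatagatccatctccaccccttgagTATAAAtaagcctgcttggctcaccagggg
The letters begin 29 bases before the start in Ren1 and 30 bases before it in Agt. TATAAA was searched on both strands. It was found in a window of 5 of the 8 member genes that have one, namely Ren1, Agt, Ace, Agtr1b and Enpep. Some genes have several windows, and counted by window it was in 5 of the 11 member windows and in 12.4% of all 32851. Agtr1a has no window in the table. The RefSeq sequence is that of the reference strain and was not read from MRL mice, and a match of letters is only a description.

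Signals are given below as log2 of the intensity over the 75th percentile of its array, so that 0 is the 75th percentile and a difference of 1 is a doubling. A log2 change is LPR minus MRL. Signals of different probes cannot be ranked against each other. A probe entered the test if 3 or more arrays had it well above background. Of the 14 probes 12 did so, each of them on all 6 arrays and without saturation, and the remaining 2 were the probes of Agtr1b. A probe was called lower or higher at an adjusted p under 0.05 in limma over all 39924 tested probes.

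Among the 12 tested probes 6 were lower in LPR mice and 0 were higher. Of all tested probes, 6.17% were lower and 6.53% were higher. At an unadjusted p under 0.05 in limma, 10 of the 12 were lower and 0 higher, against 20.5% and 9.83% of all tested probes. The 6 belong to 4 of the 8 tested genes, Ren1, Enpep, Anpep and Mme, and in the first 3 of these every tested probe was called. At the 12 probes the signals of LPR and MRL kidneys did not overlap, with every LPR kidney lower, which was so for 26.9% of all tested probes, while 11.0% of them were apart with LPR higher. The median log2 change of the 12 probes was -0.56 and that of all tested probes was -0.14. Several probes stand for 1 gene, so the 12 are not independent.

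**Figure D1:**
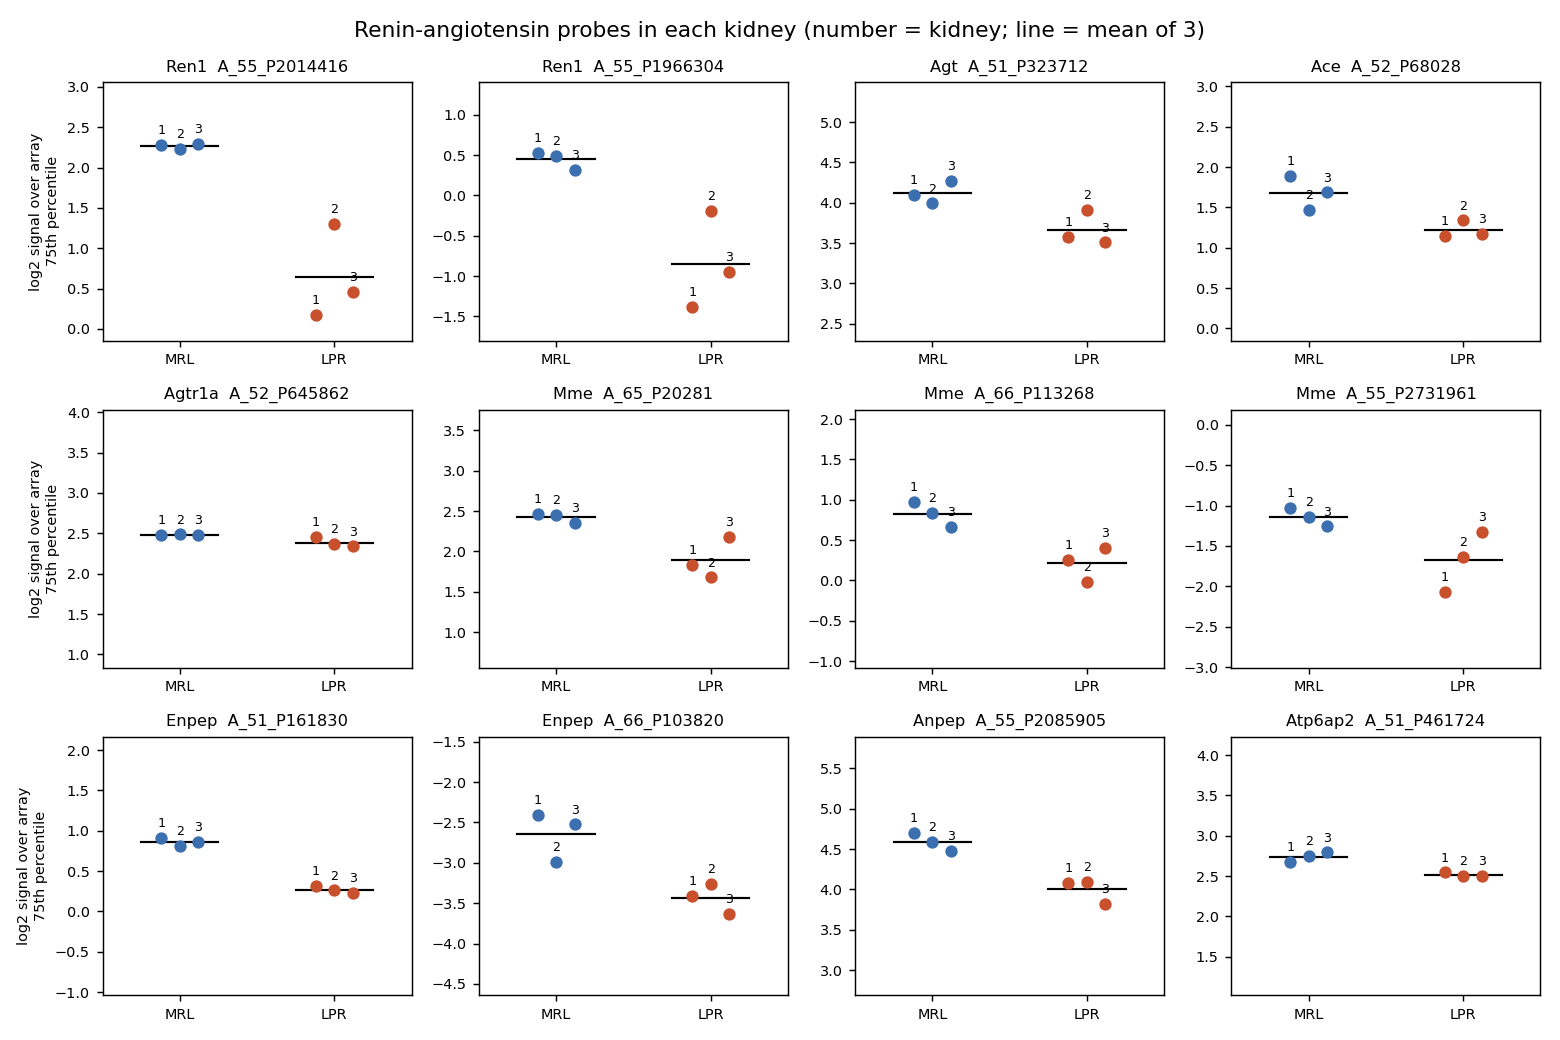
Log2 signal over the array's 75th percentile (y axis) of each tested probe in the 3 MRL and 3 LPR kidneys (x axis), with the kidney's number beside its point and a line at the group mean; every panel spans the same range of log2 units around its own centre. The LPR points lie below the MRL points in all 12 panels, with the widest gap and the widest LPR scatter in the 2 Ren1 panels.

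Renin stood apart from the other members in the size of its change. Probe A_55_P2014416 gave 2.28, 2.23 and 2.29 in MRL 1, 2 and 3, and 0.17, 1.30 and 0.46 in LPR 1, 2 and 3. The MRL kidneys were nearly alike (2.27 ± 0.03, SD, n = 3), whereas the LPR kidneys were spread (0.64 ± 0.59, SD, n = 3), with LPR 2 closest to the MRL level and LPR 1 lowest. Ren1 fell by 1.63 on the log2 scale (SE 0.27, 95% interval -2.28 to -0.98, limma adjusted p = 0.0113), which put the MRL level 3.09-fold above the LPR level. Only 0.173% of the tested probes had a lower change.

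The other Ren1 probe, A_55_P1966304, gave 0.53, 0.49 and 0.32 in the MRL kidneys and -1.38, -0.20 and -0.95 in the LPR kidneys. The order of the LPR kidneys was the same as at the first probe, with LPR 2 highest and LPR 1 lowest. It fell by 1.29 (SE 0.28, limma adjusted p = 0.0302), or 2.45-fold. Over the 6 arrays the signals of both probes had a Pearson r of 0.989, a description of arrays that also differ by strain. Within whole kidney RNA, fewer cells of a type and less RNA per cell cannot be told apart, here and for every gene below. Without MRL 1, MRL 2, MRL 3, LPR 1 or LPR 3 this second probe no longer passed (limma adjusted p 0.0568 to 0.0921). The first passed without any single kidney, at changes between -1.96 and -1.39. Fewer arrays cost calls throughout. Over all tested probes, lower calls went from 2462 to between 760 (without MRL 2) and 2269 (without LPR 2), here and for every gene below.

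Position on the slide, as inferred here, differed with strain. It was read from a digit in the name of each deposited array, taken as the slide column. Whether that digit numbers columns or rows was not checked. The 3 MRL arrays and LPR 1 were in slide column 1, and LPR 2 and LPR 3 were in column 2, which holds no MRL array. Within column 1, and so with LPR 1 alone against the 3 MRL kidneys, the first Ren1 probe had a log2 change of -2.10 (limma adjusted p = 0.0241) and the second one of -1.83 (adjusted p = 0.0309). The other 4 called member probes kept their direction but did not pass there. The lone LPR kidney is assumed in that fit to vary like the other groups.

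Mice can carry a second renin gene, Ren2, which is nearly identical to Ren1 in sequence. The Ren2 probe A_55_P1959091 gave 5.29, 5.45 and 5.38 in the MRL kidneys and 3.37, 4.55 and 3.63 in the LPR kidneys. Its LPR kidneys had the order seen at both Ren1 probes. The log2 change was -1.52 (SE 0.29, limma adjusted p = 0.0184), with MRL 2.88-fold over LPR. The array annotation gives this probe no position in the genome. Whether each probe also binds transcripts of the other renin gene was not checked, so the values of Ren1 and Ren2 may hold signal of both. The Ren2 call was lost without MRL 1, MRL 2, MRL 3 or LPR 3 (adjusted p 0.0559 to 0.0634).

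Of 10 genes that mark the renin cell or act in its control, 1 was lower, 1 was higher and 8 did not pass, with a median log2 change of 0.09. The lower one was Akr1b7, an aldo-keto reductase of renin cells. Its signals were -0.75, -0.39 and -0.81 in the MRL kidneys and -1.76, -1.34 and -2.04 in the LPR kidneys. The groups were apart, and LPR 2 was again the LPR kidney nearest to the controls. Akr1b7 fell by 1.07 (SE 0.20, limma adjusted p = 0.0190), or 2.09-fold. It did not pass without MRL 1, MRL 2, LPR 1 or LPR 3 (adjusted p 0.0524 to 0.0601).

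The higher one was Ptger4, the prostaglandin E receptor EP4, which raises cyclic AMP in renin cells and is also carried by leukocytes. Probe A_55_P2747136 gave -0.59, -0.58 and -0.40 in the MRL kidneys and 0.38, 0.43 and 0.55 in the LPR kidneys. All LPR kidneys were above all MRL kidneys and close to each other, unlike at the renin probes. Ptger4 rose by 0.97 (SE 0.11, limma adjusted p = 0.00177), or 1.96-fold, and its probe A_51_P207988 rose by 1.09 (adjusted p = 0.000978). Beside it, 4 of 5 T cell markers and 5 of 5 markers of macrophages and dendritic cells were higher in LPR kidneys. The other leukocyte lists were mixed. Among 5 B cell markers 3 were higher and 1 was lower. Among 6 markers of neutrophils and mast cells 2 were higher and 0 lower. The summed signal, in units of each array's 75th percentile, was 2.40 to 2.79 in MRL and 8.02 to 9.34 in LPR kidneys for the T cell markers, and 13.9 to 16.5 against 30.1 to 35.4 for those of macrophages and dendritic cells. Csf1r had the highest signal of the last list but its smallest change, with LPR 1.46-fold over MRL. Its other genes rose between 3.82-fold (Cx3cr1) and 14.2-fold (Itgax), so the rise of that sum does not follow Csf1r alone. The T cell marker that did not pass was Cd8a (log2 change 0.02). The part of these leukocyte markers in the Ptger4 result was not tested.

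**Figure D2:**
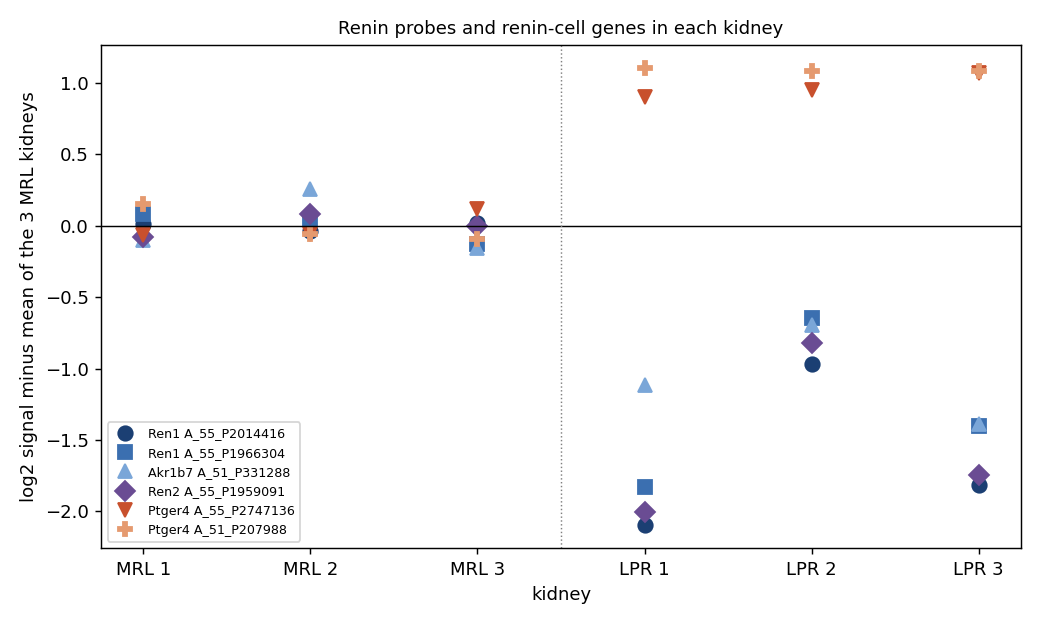
Log2 signal minus the mean of the 3 MRL kidneys (y axis) in each of the 6 kidneys (x axis) for the probes of Ren1, Ren2, Akr1b7 and Ptger4, a symbol for each probe and a dotted line between the strains. Renin and Akr1b7 lie below 0 in the 3 LPR kidneys, least so in LPR 2 (Ren1 A_55_P2014416 at 1.30 on the array scale, against 0.17 and 0.46), while both Ptger4 probes lie above 0 at nearly equal heights.

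Renin cells belong to the arteriole wall, so markers of smooth muscle and mesangium were read beside the renin values. Of 7 such genes 2 were higher, Acta2 and Tagln, both of the contractile apparatus, and none was lower. At an unadjusted p under 0.05 in limma, 5 were higher and 1 lower, and the median log2 change of the list was 0.46. The summed signal of the 7 was 19.1 to 23.6 in MRL kidneys and 29.7 to 32.0 in LPR kidneys, but these 2 genes have the highest signals of the list and weigh most in it. Itga8, an integrin chain of mesangial cells, had a log2 change in the direction of Ren1, -0.75 (SE 0.20, limma adjusted p = 0.0503), without overlap of the groups and just short of the threshold. Myh11, the smooth muscle myosin heavy chain, had one of 0.03 (adjusted p = 0.920). Among 5 endothelial markers 1 was lower, Kdr, and the summed signal was 16.2 to 17.4 in MRL and 11.9 to 13.9 in LPR kidneys. Their median log2 change was -0.38, with 2 lower and 0 higher at an unadjusted p under 0.05 in limma. Emcn and Kdr weigh most in the sum, and the log2 changes of Pecam1 (0.18) and Cdh5 (0.07) were above 0 and did not pass. The part of either list in the renin result was not tested.

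Angiotensinogen, the substrate of renin, is secreted by liver and also made in the proximal tubule. Agt probe A_51_P323712 (chr8:127080661-127080720, minus strand) gave 4.09, 3.99 and 4.27 in the MRL kidneys and 3.57, 3.91 and 3.51 in the LPR kidneys. LPR 2 came close to MRL 2, without overlap of the groups. The log2 change of -0.46 (SE 0.15, 95% interval -0.80 to -0.11) did not pass (limma adjusted p = 0.0896), and 13.6% of tested probes had a lower one. Without LPR 2 it was -0.58 and passed (adjusted p = 0.0406).

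Ace, which makes angiotensin II on endothelium and on the brush border, was close to Agt in its change. Probe A_52_P68028 (chr11:105850398-105850457, plus strand) gave 1.89, 1.47 and 1.69 in the MRL kidneys and 1.14, 1.34 and 1.18 in the LPR kidneys. MRL 2 and LPR 2 were the nearest kidneys of the groups. The log2 change was -0.46 (SE 0.14, 95% interval -0.79 to -0.14) and did not pass (limma adjusted p = 0.0735).

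The AT1 receptor had the smallest change of the tested members. Agtr1a, its main form in the mouse kidney, gave 2.48, 2.49 and 2.48 in the MRL kidneys and 2.45, 2.37 and 2.34 in the LPR kidneys at probe A_52_P645862 (chr13:30474638-30474697, plus strand). The LPR kidneys were only slightly lower, and LPR 1 was almost at the MRL level. The log2 change was -0.10 (SE 0.09, limma adjusted p = 0.511). Its 95% interval, -0.32 to 0.13, holds both 0 and the median change of all tested probes. Agtr1b, the other AT1 gene of the mouse, was not well above background on any of the 6 arrays at either of its probes, A_66_P137441 and A_55_P1975170, and no change is given for it. Agtr2, the AT2 receptor, was above background on 4 of 6 arrays, and its log2 change of -0.17 (SE 0.24) did not pass (adjusted p = 0.665). Mas1, the receptor of angiotensin 1-7, had a log2 change of 0.05 (SE 0.28, 95% interval -0.61 to 0.71, adjusted p = 0.925), and without LPR 1 it was -0.30, so no direction can be given.

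Atp6ap2, the (pro)renin receptor, is also a part of the proton pump found in most cells. Probe A_51_P461724 (chrX:12193624-12193683, plus strand) gave 2.67, 2.75 and 2.79 in the MRL kidneys and 2.55, 2.50 and 2.50 in the LPR kidneys. The groups were close but apart. Its log2 change was -0.22 (SE 0.10, 95% interval -0.45 to 0.00) and did not pass (limma adjusted p = 0.169), and 37.2% of tested probes had a lower one.

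Enpep, Anpep and Mme, the peptidases of the brush border, had changes of similar size to each other. Enpep is aminopeptidase A, which turns angiotensin II into angiotensin III. Its probe A_51_P161830 (chr3:128972910-128972969, minus strand) gave 0.91, 0.81 and 0.86 in the MRL kidneys and 0.31, 0.26 and 0.23 in the LPR kidneys. Both groups were tight, and the LPR kidneys did not have the spread they had in renin. Enpep fell by 0.59 (SE 0.10, 95% interval -0.82 to -0.37, limma adjusted p = 0.00926), or 1.51-fold, the lowest p of the members. This call held without any single kidney, and was lost only with the slide column in the fit (log2 change -0.55, adjusted p = 0.0905).

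The other Enpep probe crosses an intron, since its 60 bases span 4611 bases of chromosome 3 (chr3:129002052-129006662, minus strand), and is shown for that reason, as read along the gene.
Enpep A_66_P103820: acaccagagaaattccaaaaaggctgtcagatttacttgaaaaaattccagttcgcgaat
It gave -2.41, -2.99 and -2.52 in the MRL kidneys and -3.42, -3.26 and -3.63 in the LPR kidneys. MRL 2 and LPR 2 were the nearest, without overlap. The probe fell by 0.79 (SE 0.18, limma adjusted p = 0.0346), or 1.73-fold, and the call was lost without MRL 1, MRL 3, LPR 1 or LPR 3 (adjusted p 0.0819 to 0.106).

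Anpep, aminopeptidase N, shortens angiotensin III. Probe A_55_P2085905 (chr7:86966716-86966775, minus strand) gave 4.70, 4.59 and 4.47 in the MRL kidneys and 4.08, 4.09 and 3.82 in the LPR kidneys. LPR 3 was the lowest, and the groups did not overlap. Anpep fell by 0.59 (SE 0.12, 95% interval -0.88 to -0.29, limma adjusted p = 0.0260), or 1.50-fold. It did not pass without MRL 1, MRL 2, MRL 3 or LPR 3 (adjusted p 0.0544 to 0.0860).

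Mme, neprilysin, cuts angiotensin I to angiotensin 1-7 and degrades many other peptides. It was read by 3 probes on the plus strand of chromosome 3, of which 1 was called. That probe, A_66_P113268 (chr3:63185750-63185809), gave 0.97, 0.84 and 0.66 in the MRL kidneys and 0.25, -0.02 and 0.40 in the LPR kidneys. It fell by 0.61 (SE 0.15, limma adjusted p = 0.0406), or 1.53-fold. LPR 2 was the lowest kidney here and LPR 3 the nearest to the controls, another order than in renin.

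The other Mme probes had like changes and did not pass. A_65_P20281 (chr3:63187228-63187287) gave 2.47, 2.45 and 2.35 in the MRL kidneys and 1.83, 1.68 and 2.18 in the LPR kidneys. Its log2 change was -0.53 (SE 0.15, limma adjusted p = 0.0613), and over the 6 arrays its r with the called probe was 0.968. A_55_P2731961 (chr3:63148482-63148541) gave -1.02, -1.14 and -1.26 in the MRL kidneys and -2.07, -1.64 and -1.32 in the LPR kidneys, with LPR 3 almost at the level of MRL 3. Its log2 change was -0.53 (SE 0.20, adjusted p = 0.123). The called probe did not pass without any one of the 6 kidneys (adjusted p 0.0546 to 0.118), so the Mme call rests on a value near the threshold.

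These 3 genes are expressed by proximal tubule cells, and the markers of that segment moved in the same direction. Of 10 proximal tubule markers, which were above background on all 6 arrays, 5 were lower in LPR mice and none was higher. Their summed signal was 584 to 643 in MRL kidneys and 431 to 474 in LPR kidneys, and their median log2 change was -0.38. Of 6 podocyte markers limma called 0, with 1 higher and 0 lower at an unadjusted p under 0.05, and their sums were 20.5 to 23.3 in MRL and 21.4 to 27.9 in LPR kidneys. The part of the proximal tubule markers in the peptidase results was not tested.

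Other proteins of the brush border were read from a list of 8 measured genes, peptidases and the membrane protein collectrin (Tmem27). Here 3 were lower, 0 were higher and 5 did not pass, and the median log2 change was -0.38. Xpnpep2, aminopeptidase P, gave 1.96, 2.07 and 2.43 in the MRL kidneys and 1.28, 1.53 and 0.78 in the LPR kidneys, and fell by 0.96 (SE 0.22, limma adjusted p = 0.0341), while its dimmer probe had a log2 change of -0.94 that did not pass (adjusted p = 0.0757). Folh1, a carboxypeptidase that removes glutamate, fell by 0.50 (SE 0.12, adjusted p = 0.0394), though at its second probe the log2 change of -0.43 did not pass (adjusted p = 0.0722). Mep1a, the alpha subunit of meprin, fell by 0.39 (SE 0.10, adjusted p = 0.0453). At Dpp4, dipeptidyl peptidase 4, the probes disagreed, as the brightest had a log2 change of -0.29 that did not pass (adjusted p = 0.140), a dimmer one, A_52_P417368, fell by 0.54 (adjusted p = 0.0227), and the remaining one had -0.02 (adjusted p = 0.952). The calls of Folh1 and Mep1a were lost without any one of the 6 kidneys, and that of Xpnpep2 without any but LPR 2.

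Further enzymes, receptors and regulators of the system formed a list of 21 genes, of which 20 were tested. Of these 2 were lower, Ren2 among them, 0 were higher and 18 did not pass, and the median log2 change was -0.04. This lies above the -0.14 of all tested probes. Ctsa, a lysosomal carboxypeptidase, was 1 of the 18 at its brightest probe (log2 change -0.05, limma adjusted p = 0.796), and its dimmer probe A_52_P637360 rose by 0.49 (adjusted p = 0.0459).

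**Figure D3:**
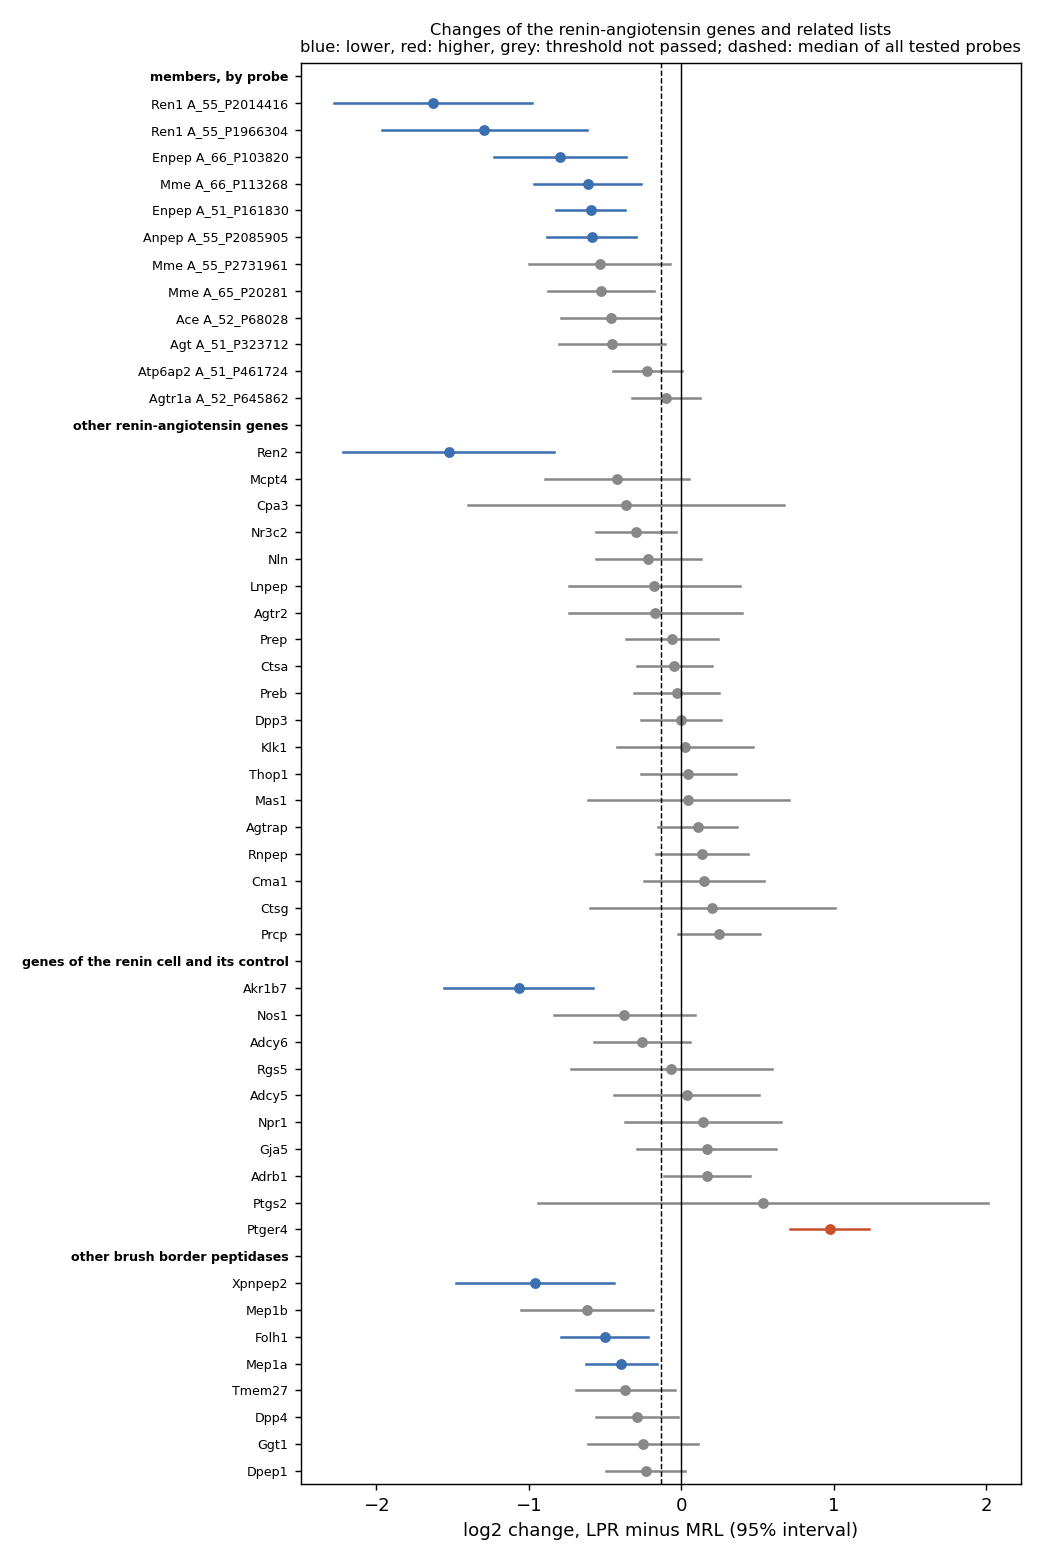
Log2 change (x axis, LPR minus MRL) with its 95% interval for each tested member probe and for the brightest tested probe of genes in the 3 related lists (y axis); blue marks lower, red higher and grey changes that did not pass, and the dashed line is the median of all tested probes at -0.14. Renin, Ren2 and Akr1b7 lie farthest to the left, Agtr1a lies near the dashed line, and Ptger4 alone lies to the right in red.

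The members did not all follow 1 pattern over the 6 kidneys. LPR 2 was the highest LPR kidney for Ren1, Ren2, Akr1b7, Agt, Ace, Enpep A_66_P103820 and, barely, Anpep. It lay between the others for Enpep A_51_P161830, Agtr1a, Atp6ap2 and Mme A_55_P2731961. For the called Mme probe and A_65_P20281 it was the lowest. Over the 6 arrays, Ren1 A_55_P2014416 had a Pearson r of 0.939 with Agt, 0.905 and 0.886 with the Enpep probes, 0.899 with Anpep, 0.891 with Ace and 0.844 with Atp6ap2. It was 0.696 to 0.781 with the 3 Mme probes and 0.651 with Agtr1a. Part of each r is the difference between the strains, which all 6 points share.

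The genes whose signals followed Ren1 A_55_P2014416 most closely, taken from the 36007 probes that no array had at background, were Pex11g (r = 0.999), Ddah1 (r = 0.999) and Hoxa7 (r = 0.998). Ddah1, which breaks down an inhibitor of nitric oxide synthase, fell by 0.60 (limma adjusted p = 0.0299), while the changes of Pex11g (-0.34, adjusted p = 0.0842) and Hoxa7 (-0.29, adjusted p = 0.121) did not pass. Each had the LPR order of renin at a smaller scale. For Enpep A_51_P161830 the closest were Slc1a1 (r = 0.999), a glutamate transporter, the transcript named XR_107509 (r = 0.999) and Etfrf1 (r = 0.999). The tenth gene in the order still had an r of 0.997 for each of both probes, and the names are only a description.

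**Figure D4:**
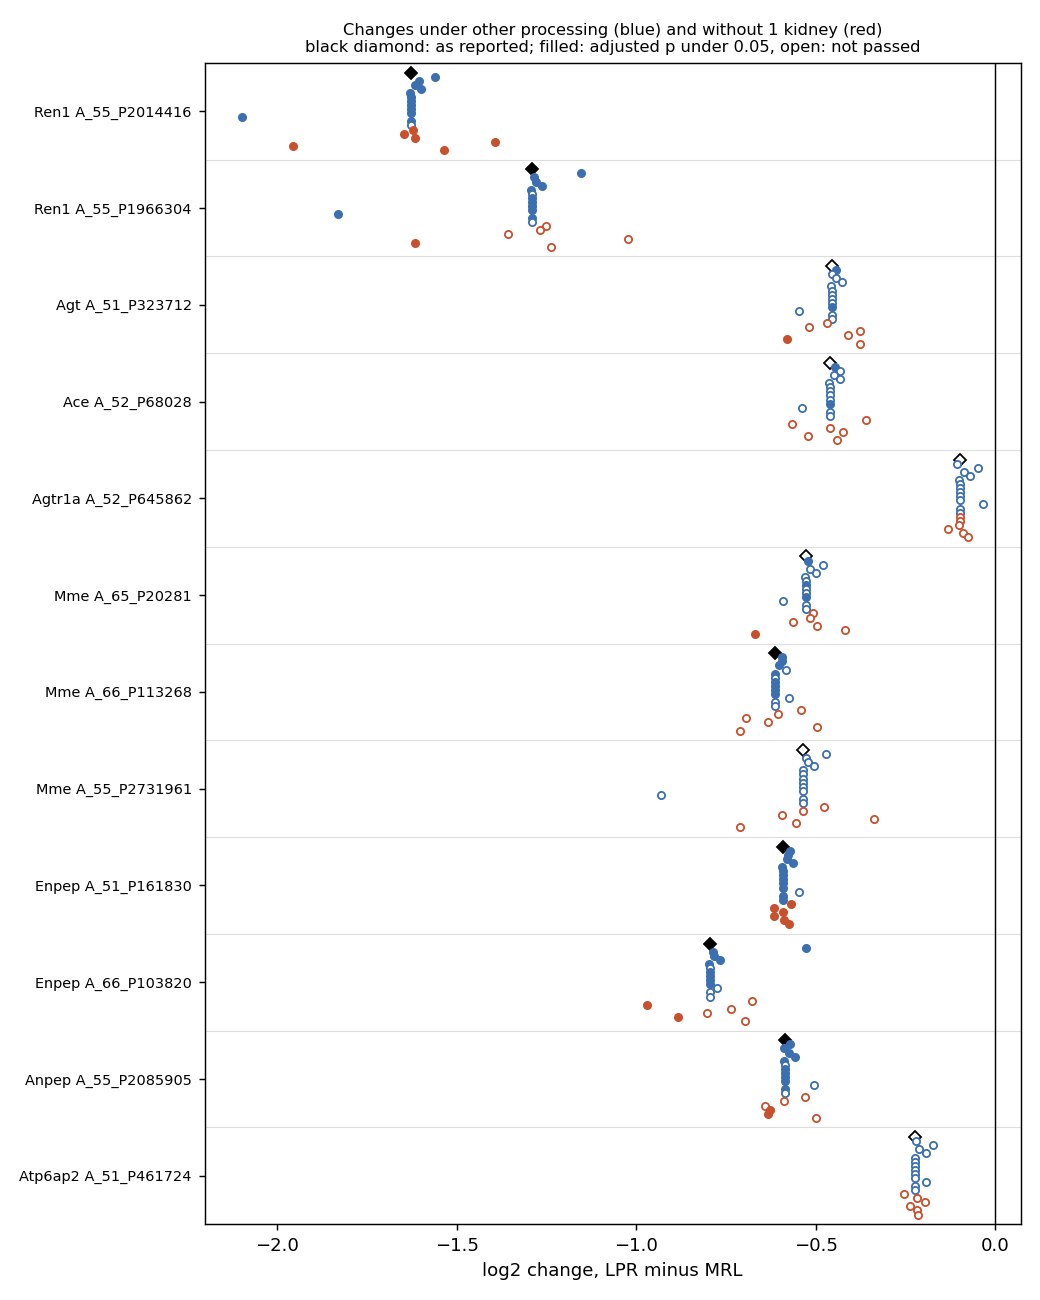
Log2 change (x axis, LPR minus MRL) of each tested member probe (y axis) as reported (black diamond), under other processing (blue) and without 1 kidney (red), filled where the adjusted p was under 0.05. Every point lies left of 0, and the filled points are most complete for Ren1 A_55_P2014416 and Enpep A_51_P161830, whose calls were lost under 1 of 20 alternatives each (the methods' t-test without adjustment is not drawn).

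LPR 1 was the brightest of the arrays before scaling. Its 75th percentile was 942, against 706 to 759 on the other arrays. Well above background were 73.5% of its spots, against 69.6% to 70.9% on the others. Between arrays, Pearson r over the tested probes was 0.990 to 0.993 within groups and 0.961 to 0.971 between groups. Fas, the gene mutated in LPR mice, had a log2 change of -0.47 at its brighter probe, A_55_P2091676 (limma adjusted p = 0.234). Its other probe, A_52_P73385, was well above background on 0 of 3 MRL and 3 of 3 LPR arrays. It entered the test only through the LPR arrays, so its call as higher (limma adjusted p = 0.0338) is not interpreted. Where these probes lie with respect to the mutation was not looked up, so neither is used as a check of the labels.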

How the data were processed

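RNA of 3 MRL and 3 LPR kidneys was measured on 6 single-colour arrays of 1 slide. Kidneys were grouped by the strain in the labels, which number them but do not state separate animals, so p-values measure the spread between these samples. The authors deposited the intensity of each spot from Agilent Feature Extraction 12.0.3.1 (submitters' processing notes), with background subtracted and no normalization between arrays. The authors also deposited a ratio, each intensity over its array's 75th percentile with control spots included, used as an alternative. The paper names Trizol and the labels the RNeasy Mini Kit for RNA isolation.

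Control spots were left out, and log2 intensities were shifted by each array's 75th percentile over the remaining spots. Outlier spots (73 to 90 per array) were then left out, and spots of 1 probe were averaged. Probes well above background on at least 3 of 6 arrays were tested in R 4.3.3 by limma 3.58.1. The p-values of all 39924 were adjusted by the Benjamini-Hochberg method, with a threshold of 0.05. limma shares 1 spread between both groups. An exact test of 3 against 3 cannot go below 0.1, so none is given. The number of arrays limits the precision. Steps were tested on simulated data.

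Every member is named with each probe, as are genes of the related lists that passed (by brightest tested probe), Agtr2, Mas1 and Ren2, and the 3 genes most like Ren1 and Enpep. Dpp4, Ctsa, Fas and the named cell markers were added after their values were seen. Some results are not reported here but stay in the tallies. Members and lists were chosen with earlier results of these data known. Of 14 member probes, 12 were matched to RefSeq, and 0 names differed. Alternatives were normexp (offset 50), quantile and median normalization, a percentile over detected probes, the deposited ratio, other filters, a floor, outliers kept, an intensity trend, slide column or replicate number in the fit, the methods' t-test, gene means and leaving out each kidney. Random steps used the seed 7, and figures were drawn with matplotlib 3.10.9.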

Additional observations from a re-analysis of the deposited data

How the results depend on the processing

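All 12 member probes kept a negative log2 change under every alternative run, and no member probe was called higher under any; the counts were less stable. The 6 member probes and 6 related genes lower, with 1 related gene higher, became 2 and 3 lower without a filter on dim probes. With the slide column in the fit they were 2 and 2 lower and 2 higher, the second being Mas1. The methods' t-test called 11 and 10 lower at its unadjusted threshold, and 1 and 2 after Benjamini-Hochberg adjustment. Averaging the probes of a gene left 3 of 8 member genes lower. Leaving out a single kidney gave 2 to 6 member probes and 1 to 4 related genes lower. The fewest member probes, 2, came without MRL 1 or MRL 3, and 3 came without MRL 2, LPR 1 or LPR 3. Lower calls over all tested probes also dropped, to 839, 760 and 827 without MRL 1, 2 and 3. Without LPR 1, 2 and 3 they were 1503, 2269 and 900. Mas1, at 0.05 as reported, turned to -0.031 with normexp and ranged from -0.30 (without LPR 1) to 0.25 when 1 kidney was left out, and passed in none of these. Normexp and the intensity trend each called 9 member probes. Over all tested probes, the lower calls numbered 2462 as reported, 463 with the slide column and 4498 with normexp, where the lower share of calls was 64.0% against 48.6%. Scaling shifted the median change of all probes to between -0.14 and -0.11. For the features not called, 3 arrays per group limit what could be seen. The cause of these differences was not tested.

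With the replicate number as a block, 4 member probes and 3 related genes were lower. Same-numbered kidneys deviated from their group means together with r of 0.115, 0.02 and 0.005, and other pairs with r of -0.067 to 0.051. With 3 kidneys per group, such r cannot decide whether the numbers pair the samples. A call lost under the block is therefore not interpreted.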
